A study of Homo sapiens with 4 samples.

Results

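The genes described here encode SR proteins and heterogeneous nuclear ribonucleoproteins (hnRNPs), the best-known families of RNA-binding splicing regulators. They were taken as the protein-coding genes whose symbol is SRSF with a number, begins with HNRNP, or is TRA2A or TRA2B, with at least 10 reads over the 4 libraries. Of 58735 genes in the table, 37 met this rule: 12 SRSF genes, 2 TRA2 genes and 23 HNRNP genes. Another 4 genes met the name rule but not the minimum (HNRNPCL1, HNRNPCL2, HNRNPCL3 and HNRNPCL4). HNRNPUL2-BSCL2, a readthrough of 2 neighbouring genes with 1 to 4 reads per library, did not reach 1 CPM (counts per 1000000 of the scaled library) and was not compared, which left 36 genes.

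The RNA was from HEK293T, a line of human embryonic kidney origin, after CRISPR disruption of PBRM1. The cells received a plasmid for GFP-tagged PBRM1 for 48 h, either the unaltered protein (WT) or the mutant P1048R, T1202K or C1233W. PBRM1, or BAF180, belongs to PBAF, a complex that remodels chromatin, and the mutants are altered in its BAH domains. Every library thus comes from PBRM1-disrupted cells with transfected PBRM1, 1 library per construct, and a library without plasmid was not analysed here. The sources used here do not say whether the disrupted cells are a single clone.

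SR proteins carry RNA recognition motifs and a domain rich in arginine and serine; bound to exonic enhancers, they mostly promote inclusion of the exon. Most hnRNPs coat nascent transcripts, and many of them, such as the A and B group and PTB, silence exons to which they bind. The outcome for many exons depends on the balance between the families. Many of these genes also control their own transcripts by splicing in or out exons or introns that expose the mRNA to nonsense-mediated decay (NMD).

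Total counts were 10246250 to 11205322 per library. PBRM1 itself stood at 22768 CPM in WT, 8805 in P1048R, 15262 in T1202K and 60509 in C1233W, so expression of the construct differed between the libraries, and its part in the results below was not tested. All 7 identity markers chosen for HEK293T (PAX2, LHX1, NEFL, NEFM, VIM, KRT8 and KRT18) were detected in every library, and NEFM, a neurofilament gene, was at 345 CPM in WT and 172, 185 and 192 in the mutants. KRT8 was at 26.1 CPM in P1048R and 44.6 to 45.4 in the other libraries. By the 1.5-fold rule given below, 3 of the 7 were lower than WT in P1048R, 1 in T1202K and 1 in C1233W, and 0 were higher. The lower shares are 42.9%, 14.3% and 14.3%, against 8.99%, 5.29% and 4.94% of all genes. On total counts 2, 1 and 1 of the 7 were lower. Of 11 markers of other cell types, CD3E and HBB had no read, and PTPRC, PECAM1, CDH5, KRT5 and KRT14 had at most 3 reads in a library. COL1A1 was at 30.1 CPM in WT and 15.8, 22.4 and 30.2 in the mutants, and COL3A1 at 10.4 and 5.11, 5.39 and 11.1; ALB and LUM reached at most 1.74 and 2.22 CPM. The part of these markers in the results was not tested. In bulk RNA, fewer cells of a kind and less RNA per cell cannot be told apart.

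The promoters of 7 members are shown because they head genes among the members whose RNA levels lay farthest apart between WT and the mutants in either direction. HNRNPA2B1, HNRNPR, HNRNPM and SRSF5 were lower in each mutant library, whereas SRSF10 and SRSF12 were higher; SRSF7 was higher in P1048R and T1202K. Each sequence holds the 250 bases before the first listed start site (RefSeq, GRCh38.p14), written 5′ to 3′ on the strand of the gene. They lie at chr7:26200747-26200996 (minus strand), chr1:23344285-23344534 (minus strand), chr19:8444725-8444974 (plus strand), chr14:69766892-69767141 (plus strand), chr2:38751495-38751744 (minus strand), chr1:23980328-23980577 (minus strand) and chr6:89118072-89118321 (minus strand), in that order. Capitals mark matches, on either strand, to the CCAAT box (CCAAT), the Sp1 GC box (GGGCGG), the E-box (CACGTG) and the TATA box (TATAAA).
HNRNPA2B1: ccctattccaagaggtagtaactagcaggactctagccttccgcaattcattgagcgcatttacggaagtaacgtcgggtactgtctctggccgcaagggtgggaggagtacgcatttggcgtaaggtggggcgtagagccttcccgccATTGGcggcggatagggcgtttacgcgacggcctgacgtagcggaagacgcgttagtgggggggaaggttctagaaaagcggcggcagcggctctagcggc
HNRNPR: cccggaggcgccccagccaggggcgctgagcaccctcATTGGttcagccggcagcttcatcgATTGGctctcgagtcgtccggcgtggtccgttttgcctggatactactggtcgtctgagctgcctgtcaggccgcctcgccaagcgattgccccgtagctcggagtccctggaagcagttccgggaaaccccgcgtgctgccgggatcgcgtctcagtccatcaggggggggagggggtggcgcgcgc
HNRNPM: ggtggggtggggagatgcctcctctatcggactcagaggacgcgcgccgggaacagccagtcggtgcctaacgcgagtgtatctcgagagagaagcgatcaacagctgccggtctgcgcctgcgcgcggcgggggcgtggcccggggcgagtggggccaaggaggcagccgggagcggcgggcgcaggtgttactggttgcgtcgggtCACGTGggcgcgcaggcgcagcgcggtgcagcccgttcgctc
SRSF5: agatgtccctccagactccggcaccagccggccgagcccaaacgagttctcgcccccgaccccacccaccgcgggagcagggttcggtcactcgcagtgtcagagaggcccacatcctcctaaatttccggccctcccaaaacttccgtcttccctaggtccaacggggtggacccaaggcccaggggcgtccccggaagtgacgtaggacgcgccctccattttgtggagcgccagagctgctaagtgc
SRSF7: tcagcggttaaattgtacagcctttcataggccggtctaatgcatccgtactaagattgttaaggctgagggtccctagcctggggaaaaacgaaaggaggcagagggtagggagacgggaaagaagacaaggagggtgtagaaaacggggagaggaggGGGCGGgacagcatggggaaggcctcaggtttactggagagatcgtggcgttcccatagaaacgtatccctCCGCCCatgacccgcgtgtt
SRSF10: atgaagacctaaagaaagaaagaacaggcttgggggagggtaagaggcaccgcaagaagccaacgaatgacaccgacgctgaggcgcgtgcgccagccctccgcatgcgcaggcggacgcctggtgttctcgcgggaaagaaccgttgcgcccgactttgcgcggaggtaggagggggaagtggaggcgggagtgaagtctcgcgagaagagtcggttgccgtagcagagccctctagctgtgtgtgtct
SRSF12: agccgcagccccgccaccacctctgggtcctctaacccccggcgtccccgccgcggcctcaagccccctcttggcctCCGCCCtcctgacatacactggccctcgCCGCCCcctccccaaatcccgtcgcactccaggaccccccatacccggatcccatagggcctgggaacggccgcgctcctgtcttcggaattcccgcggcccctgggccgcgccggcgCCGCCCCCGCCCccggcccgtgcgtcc

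HNRNPA2B1 and HNRNPR carry CCAAT matches, HNRNPM an E-box, SRSF7 and SRSF12 GC boxes, and SRSF5 and SRSF10 none of these 4. Promoters were matched for 33 of the 37 members; the others are HNRNPA1, HNRNPA1P48, SRSF2 and TRA2A. The CCAAT box occurred in 14 of 21 HNRNP promoters and 2 of 12 SR promoters, against 33.0% of the 27305 promoters in the table. HNRNPUL2 and its readthrough share most of their promoter window and are counted apart. The E-box occurred in 6 of 21 HNRNP promoters (HNRNPA3, HNRNPD, HNRNPDL, HNRNPH2, HNRNPH3 and HNRNPM) and in 0 of 12 SR promoters, against 6.49%. GC boxes occurred in 17 of 21 and 5 of 12, against 42.3%. TATA boxes were found in 5 of 33 members (HNRNPAB, HNRNPC, HNRNPD, SRSF3 and SRSF11), against 11.1%. The cAMP response element TGACGTCA and a palindromic NRF1 site matched 0 of 33, against 1.77% and 1.13%. The ETS core CCGGAAG matched 5 of 33 (HNRNPD, HNRNPF, HNRNPLL, SRSF4 and SRSF5), against 8.82%. Both strands were searched, and none of the motifs contains another. Member promoters were rich in G and C, with a median of 65.6% against 58.0% for all promoters. A match is a description of the letters and not of a bound site.

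The members were among the abundant mRNAs of these cells and took 1.91% of counted reads in WT, 1.70% in P1048R, 1.69% in T1202K and 1.65% in C1233W. Compared per kilobase of the principal transcript, HNRNPA2B1, an hnRNP that also guides RNA transport, led with 915 CPM per kb in WT and 578, 578 and 652 in P1048R, T1202K and C1233W. HNRNPC, which binds uridine tracts, followed with 735 in WT and 589, 642 and 676, so that it stood above HNRNPA2B1 in the mutant libraries and below it in WT. HNRNPA3 came next by mean level (371 to 582 CPM per kb). SRSF10, a splicing regulator that turns into a repressor when dephosphorylated, led the SR genes with 263 to 328 CPM per kb, and SRSF11 and SRSF7 followed at 126 to 186 and 109 to 160. At the other end of the SR genes were SRSF12, a relative of SRSF10, and SRSF8, a retrocopy of SRSF2, with means of 15.4 and 11.8 CPM per kb. The order depends on the length used. Per kilobase of all annotated exons, HNRNPA2B1, HNRNPA1 and HNRNPAB led, and SRSF7, SRSF2 and SRSF3 led the SR genes, with SRSF10 at a mean of 46.2 CPM per kb.

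**Figure D1:**
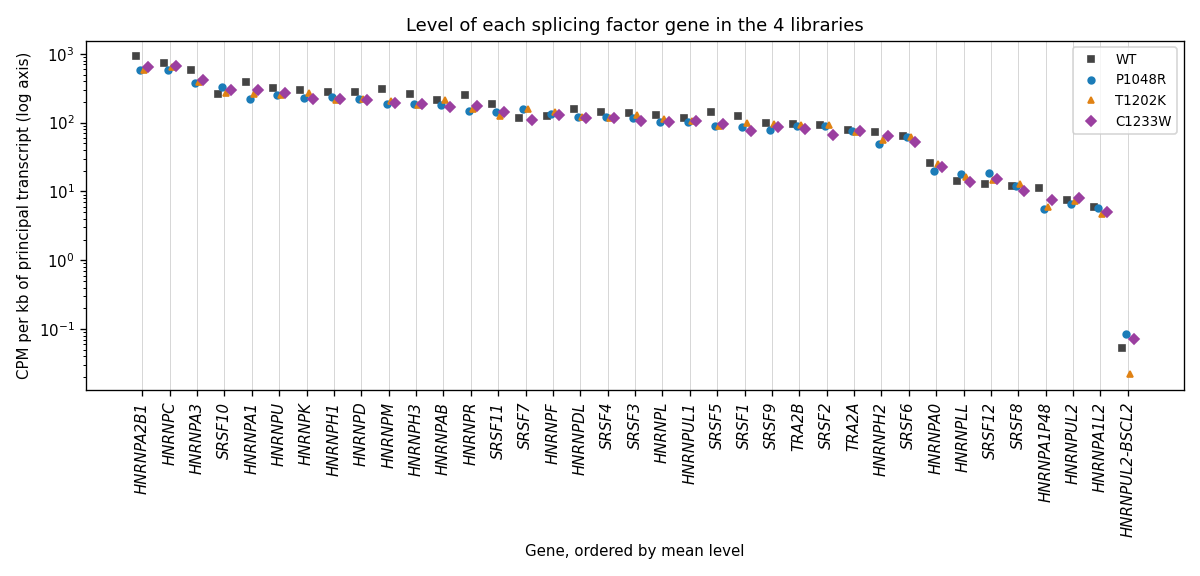
Level of each of the 37 genes in each library, in CPM per kb of principal transcript on a log axis, ordered by the mean over 4 libraries; each symbol is 1 library. HNRNPA2B1 is at the left end with 578 to 915 CPM per kb and the readthrough HNRNPUL2-BSCL2 at the right end, with at most 4 reads in a library.

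Below, a log2 ratio compares CPM in 2 libraries after trimmed-mean (TMM) scaling, with 0.5 added to each count, and the range in parentheses is its 95% counting interval. Such intervals cover counting error only and hold no variation between cultures, so each ratio is a difference between 2 libraries without a replicate check. A gene passed a size rule when its ratio was at least 2-fold (or 1.5-fold) and the interval excluded 0. The comparisons with WT share the 1 WT library, so a shift in that library would appear in each of them. TMM scaling put the median of all 16262 genes compared at −0.04 in P1048R, −0.01 in T1202K and −0.01 in C1233W; scaling on total counts moves it to 0.18, 0.17 and 0.12. That scaling turned the sign of 10 member ratios in P1048R (−0.01 to −0.22 after TMM), 9 in T1202K (−0.01 to −0.15) and 4 in C1233W (−0.06 to −0.12), all from below to above 0.

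HNRNP genes lay lower in P1048R than in WT, and SR genes were divided. The median log2 ratio was −0.36 for the 22 HNRNP genes and −0.09 for the 14 SR genes, against −0.04 for all genes; on total counts these medians were −0.14 and 0.14, against 0.18. Over both families, 29 of 36 genes were below the all-gene median, 20 of them HNRNP genes. A ratio past 1.5-fold lower was found for 7 of 36 members (19.4%), where 8.99% of all genes passed and 10.8% of other genes with a mean of at least 100 CPM. The 7 were HNRNPA1, HNRNPA2B1, HNRNPA3, HNRNPM, HNRNPR, HNRNPA1P48 and SRSF5. None was past 1.5-fold higher, where 10.7% of all genes passed and 3.01% of other genes with a mean of at least 100 CPM. On total counts the split was 2 lower (HNRNPA1 and HNRNPA1P48) and 2 higher (SRSF7 and SRSF12). Past 2-fold stood HNRNPA1P48 alone, lower, where 7.5% of all genes passed in either direction, and it did not pass on total counts, with DESeq2 size factors or with the GC and length trend removed.

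HNRNP genes lay below WT in T1202K also, and SR genes were near the level of all genes. HNRNP genes had a median of −0.32 and SR genes of −0.04, against −0.01 for all genes; on total counts the medians were −0.14 and 0.13, against 0.17. Members past 1.5-fold lower numbered 6 of 36 (16.7%), against 5.29% of all genes, namely HNRNPA1, HNRNPA2B1, HNRNPA3, HNRNPR, HNRNPA1P48 and SRSF5, while HNRNPM at −0.58 was just short of the rule. None was past 1.5-fold higher, where 7.96% of all genes passed and 1.31% of other genes with a mean of at least 100 CPM. None was past 2-fold (5.15% of all genes). On total counts 1 gene passed in each direction, HNRNPA1P48 lower and SRSF7 higher.

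In C1233W both families lay below WT. The median was −0.34 for HNRNP genes and −0.25 for SR genes, against −0.01 for all genes (−0.21 and −0.12 against 0.12 on total counts), and 32 of 36 members were below the all-gene median. Yet the shifts were small gene by gene: 2 of 36 members (5.56%), HNRNPM and SRSF1, were past 1.5-fold lower. That share is close to the 4.94% of all genes and below the 7.29% of other genes with a mean of at least 100 CPM. None was past 1.5-fold higher, where 8.77% of all genes passed and 1.18% of other genes with a mean of at least 100 CPM. None was past 2-fold (5.4% of all genes), and on total counts none passed in either direction.

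The direction of abundant genes as a whole depended on the scaling. The 2290 other genes with a mean of at least 100 CPM, a limit chosen after the values were seen, had medians of −0.19, −0.14 and −0.19 in P1048R, T1202K and C1233W after TMM and of 0.03, 0.03 and −0.05 on total counts. Of these genes, 10.8%, 5.33% and 7.29% were past 1.5-fold lower after TMM, and 3.01%, 1.31% and 1.18% were past 1.5-fold higher. Among members, the Spearman correlation of mean CPM with the ratio was −0.39, −0.41 and −0.33 over 36 genes, and −0.10, −0.14 and −0.36 over all 13448 protein-coding genes compared, as a description; the points share the same libraries.

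**Figure D2:**
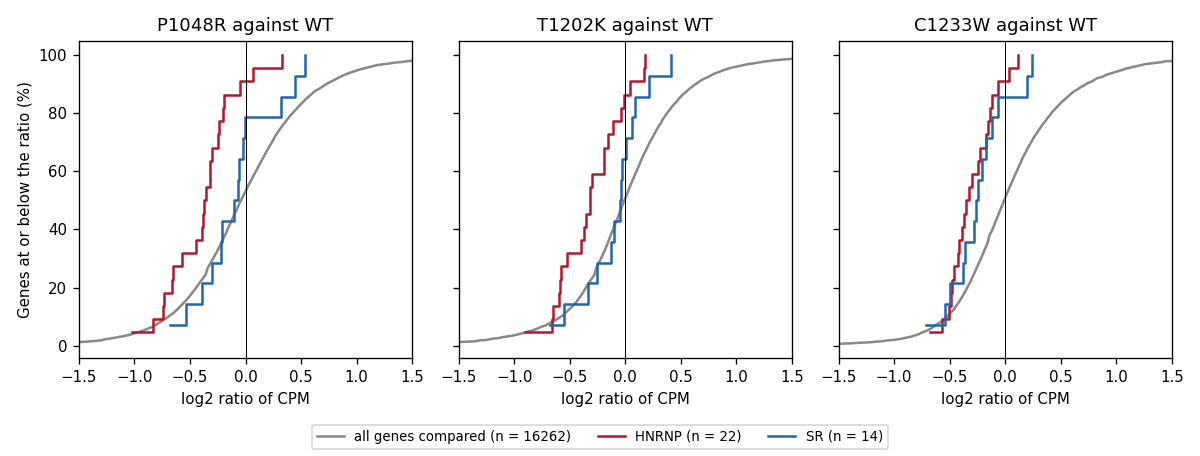
Share of genes (y axis, percent) at or below each log2 ratio to WT (x axis) for all 16262 genes compared, 22 HNRNP genes and 14 SR genes, 1 panel per mutant. The HNRNP curve lies left of all genes in each panel, with medians of −0.36, −0.32 and −0.34, whereas the SR curve lies near all genes in P1048R and T1202K and left of them in C1233W; total-count scaling moves all curves of a panel together to the right.

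The ratio between the families within a library does not depend on the scaling. In WT, 4.10 HNRNP reads were counted per SR read (4.05 to 4.14). The ratio was 3.22 for P1048R (3.19 to 3.26), 3.45 for T1202K (3.41 to 3.48) and 3.84 for C1233W (3.79 to 3.88). WT was highest and P1048R lowest, and no intervals overlapped. Without HNRNPA1 and HNRNPA2B1, the ratios were 2.93, 2.45, 2.61 and 2.81 in the same order. Summed over genes, HNRNP levels were 16832 CPM in WT and 12153, 12750 and 13122 in the mutants, and SR levels 4107 CPM in WT and 3772, 3700 and 3418. The HNRNP sum was lowest in P1048R and the SR sum in C1233W.

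The A and B group of hnRNPs bind UAG-containing motifs and often silence exons. They held 4 of the 7 members past 1.5-fold lower in P1048R, 4 of 6 in T1202K and 0 of 2 in C1233W. These are parts of the called members and not the share of the group that was called. Of all genes, 8.99%, 5.29% and 4.94% passed that rule, so the 2 kinds of share cannot be compared. The 4 were HNRNPA1, HNRNPA2B1, HNRNPA3 and HNRNPA1P48, which shares 49.2% of its windows of 50 bases with other genes, most often HNRNPA1. Counts of HNRNPA1P48 and HNRNPA1 may thus not be separate. Of the 4, HNRNPA1 and HNRNPA1P48 passed on total counts in P1048R and HNRNPA1P48 alone in T1202K. HNRNPA1 (ENSG00000135486, plus strand of chromosome 12, 54280193 to 54287088) was at 1603 CPM in WT, 902 in P1048R, 1059 in T1202K and 1227 in C1233W. The log2 ratios to WT were −0.83 (−0.87 to −0.79), −0.60 (−0.63 to −0.56) and −0.39 (−0.42 to −0.35). WT was the highest library and the mutants were spread, with C1233W nearest to WT. HNRNPA2B1 (minus strand of chromosome 7, 26173057 to 26201529) had levels of 3200 CPM in WT, 2022 in P1048R, 2021 in T1202K and 2282 in C1233W. Its ratios of −0.66 in P1048R and T1202K and −0.49 (−0.51 to −0.46) in C1233W again put C1233W nearest to WT. HNRNPA3 (plus strand of chromosome 2, 177212563 to 177223958) had 1204 CPM in WT and 766, 801 and 866 in the mutants, with ratios of −0.65, −0.59 and −0.48.

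Other genes of the same group moved less in P1048R and T1202K. HNRNPA1L2 had ratios of −0.05, −0.32 and −0.22, each with an interval that includes 0. HNRNPA0, a single-exon relative, was at 224 CPM in WT, 170 in P1048R, 221 in T1202K and 201 in C1233W. After TMM, T1202K was at the WT level within counting error for HNRNPA0, whereas on total counts it lay above WT (0.16, 0.08 to 0.25). HNRNPAB was at 377 CPM in WT and 319, 389 and 308, lower in P1048R (−0.24) and C1233W (−0.30) with 0.04 (−0.02 to 0.11) in T1202K, which turned to −0.05 with the GC and length trend removed. On total counts the HNRNPAB ratios were −0.02, 0.22 and −0.16 in P1048R, T1202K and C1233W. HNRNPD, known as AUF1, a factor of AU-rich mRNA decay, and its relative HNRNPDL were lower by similar amounts in every mutant, −0.30 to −0.37 and −0.36 to −0.42.

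HNRNPR and HNRNPM were the other hnRNP genes past the rule. HNRNPR, a relative of the hnRNP Q protein SYNCRIP, was at 670 CPM in WT and 401, 426 and 473 in P1048R, T1202K and C1233W. Its ratios were −0.74 (−0.79 to −0.69), −0.65 (−0.71 to −0.60) and −0.50 (−0.56 to −0.45). HNRNPM, which binds GU-rich sequence, was at 769 CPM in WT and 461, 516 and 482. Its ratios of −0.74, −0.58 and −0.67 (−0.73 to −0.62) made it 1 of the 2 members past 1.5-fold lower in C1233W.

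The remaining hnRNP genes ranged from modestly lower to level. HNRNPU, a nuclear scaffold protein and the second most abundant member in CPM, was at 2179 CPM in WT and 1746, 1748 and 1843. HNRNPC was at 1259 CPM in WT and 1010, 1100 and 1159 in the mutants, with ratios of −0.32, −0.19 and −0.12 (0.01 in C1233W on total counts). HNRNPK, a poly(C)-binding protein with KH domains, had ratios of −0.38, −0.15 (0.02 on total counts) and −0.41, and HNRNPL, which binds CA repeats, of −0.35, −0.19 and −0.35. HNRNPUL1 and HNRNPUL2, relatives of HNRNPU, had ratios of −0.20 to 0.11.

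In the H and F group, which binds G tracts, the genes parted. HNRNPH1, HNRNPH2 and HNRNPH3 were lower, with ratios of −0.25 to −0.57 in P1048R, −0.37 to −0.52 in T1202K and −0.18 to −0.46 in C1233W, where HNRNPH2 turned to 0.01 on total counts without PBRM1. After TMM, HNRNPF was level or slightly higher, at 349 CPM in WT and 366, 392 and 357 in the mutants (ratios 0.07, 0.17 and 0.03). On total counts it lay above WT in each mutant (0.29, 0.34 and 0.16). HNRNPLL, a regulator of CD45 splicing in lymphocytes, was at 59.7 CPM in WT, 75.1 in P1048R (0.33, 0.18 to 0.49), 67.6 in T1202K and 57.3 in C1233W. In P1048R, HNRNPF and HNRNPLL were the HNRNP genes with ratios above 0 after TMM; on total counts 5 HNRNP genes were above 0.

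**Figure D3:**
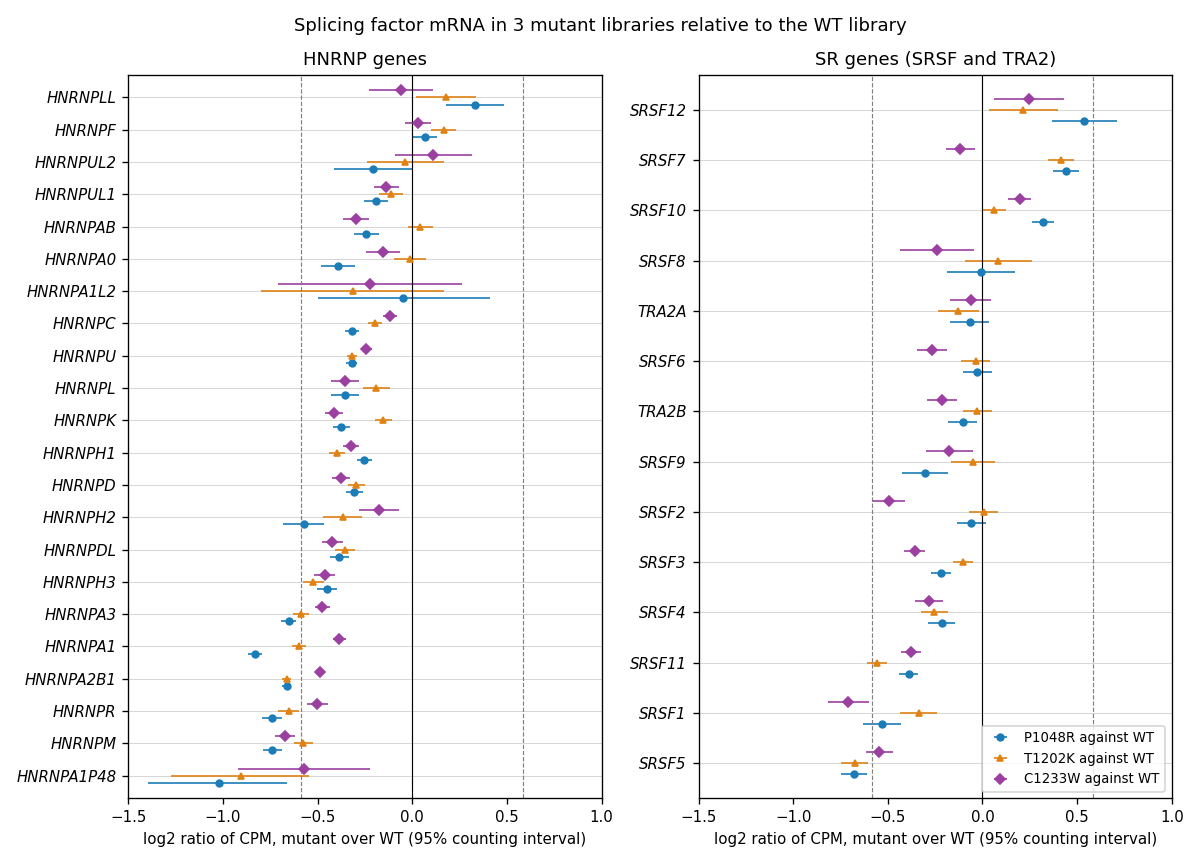
Log2 ratio of CPM to WT for the 36 genes compared, HNRNP genes at left and SR genes at right, 1 symbol per mutant (x axis) with its 95% counting interval, genes on the y axis; dashed lines mark 1.5-fold. HNRNPA1P48, HNRNPM, HNRNPR and HNRNPA2B1 lie at the low end and SRSF12, SRSF7 and SRSF10 at the high end; on total counts all points move right and 10, 9 and 4 ratios in P1048R, T1202K and C1233W pass from below to above 0, among them SRSF7 in C1233W (0.01).

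Among SR genes, SRSF5 was past 1.5-fold lower in P1048R and in T1202K. SRSF5 (plus strand of chromosome 14, 69726900 to 69772005) was at 398 CPM in WT, 249 in P1048R, 249 in T1202K and 273 in C1233W. The ratios were −0.68 (−0.75 to −0.61), −0.68 (−0.75 to −0.60) and −0.54 (−0.62 to −0.47), with WT the highest library. SRSF11, which carries an RS domain and interacts with U2AF, was at 702 CPM in WT and 536, 478 and 541, with ratios of −0.39, −0.56 and −0.38.

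SRSF1 and SRSF2, the founding SR proteins, were lowest in C1233W. SRSF1 (minus strand of chromosome 17, 58003360 to 58007346) was at 186 CPM in WT, 129 in P1048R, 148 in T1202K and 114 in C1233W. Its ratio in C1233W was −0.71 (−0.82 to −0.60), against −0.53 and −0.34 in the others. SRSF2 was at 269, 258 and 270 CPM in WT, P1048R and T1202K and at 191 in C1233W, a ratio of −0.50 (−0.58 to −0.41) to WT. After TMM, WT, P1048R and T1202K agree within counting error for SRSF2, whereas on total counts P1048R and T1202K lay above WT (0.16, 0.09 to 0.24, and 0.18, 0.11 to 0.26). C1233W stood below WT on total counts as well (−0.36).

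SRSF3, the smallest SR protein and a factor of mRNA export, was at 582 CPM in WT and 500, 541 and 454 in the mutants. SRSF4, closely related to SRSF5, had ratios of −0.22 (0.01 on total counts), −0.25 and −0.28. SRSF6, of the same subgroup, had ratios of −0.03, −0.04 and −0.27, the first 2 within counting error of WT after TMM. On total counts SRSF6 lay above WT in P1048R (0.20, 0.12 to 0.27) and T1202K (0.14, 0.06 to 0.22) and below it in C1233W (−0.14). SRSF9 was at 117 CPM in WT and 95.2, 113 and 104. The Transformer-2 genes, which bind purine-rich enhancers, were near WT. TRA2A had ratios of −0.07, −0.13 and −0.06, each above 0 on total counts, and TRA2B of −0.10, −0.03 and −0.21, the first 2 above 0 on total counts.

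Among members, SRSF7, SRSF10 and SRSF12 lay on the higher side, though none passed 1.5-fold after TMM. The share of all genes with a lower ratio was 80.8%, 81.9% and 39.7% for SRSF7 in P1048R, T1202K and C1233W. It was 75.1%, 56.5% and 67.5% for SRSF10 and 84.5%, 69.7% and 70.6% for SRSF12. SRSF7 (minus strand of chromosome 2, 38743599 to 38751494), an SR protein with a zinc knuckle that serves in mRNA export, was at 293 CPM in WT, 399 in P1048R, 391 in T1202K and 270 in C1233W. P1048R and T1202K were alike and above WT (0.44, 0.37 to 0.51, and 0.41, 0.35 to 0.48). C1233W was slightly below WT (−0.12, −0.19 to −0.04), and level with it on total counts (0.01). SRSF10 (minus strand of chromosome 1, 23964804 to 23980927) was at 428 CPM in WT and 535, 447 and 491, with ratios of 0.32, 0.06 and 0.20. SRSF12 (minus strand of chromosome 6, 89095959 to 89118081) was at 46.2 CPM in WT and 67.0, 53.7 and 54.8, with ratios of 0.54 (0.37 to 0.71), 0.22 and 0.24. SRSF8 was at 48.9 CPM in WT and 48.6, 51.8 and 41.4.

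Pairs of genes can be compared within a library, free of the scaling. The pairs were chosen after the values were seen to join a low and a high gene, so their direction follows from the choice and only the sizes are described. HNRNPA1 had 4.59 reads per HNRNPF read in WT (4.42 to 4.77) and 2.46, 2.70 and 3.44 in P1048R, T1202K and C1233W. HNRNPM had 2.20 per HNRNPF read in WT (2.11 to 2.30) and 1.26, 1.32 and 1.35. SRSF7 had 0.736 reads per SRSF5 read in WT (0.700 to 0.773) and 1.60, 1.57 and 0.989. SRSF10 had 0.610 per SRSF11 read in WT and 0.998, 0.936 and 0.908.

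**Figure D4:**
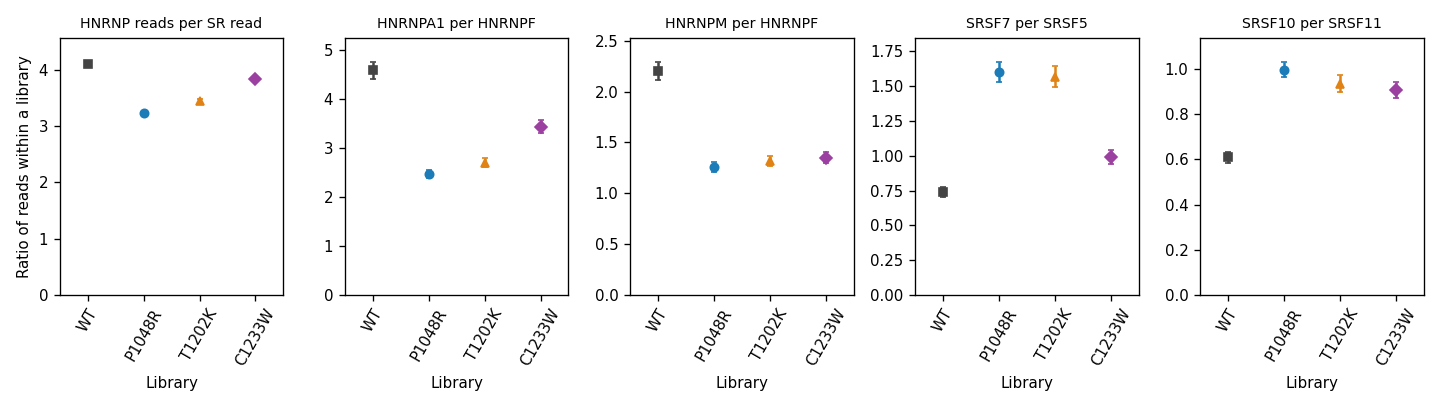
Ratio of reads within each library (y axis) for all HNRNP over all SR genes and for 4 pairs of genes, with 95% counting intervals; each point is 1 library. WT is highest for HNRNP per SR read (4.10), HNRNPA1 per HNRNPF (4.59) and HNRNPM per HNRNPF (2.20) and lowest for SRSF7 per SRSF5 (0.736) and SRSF10 per SRSF11 (0.610).

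Between mutants no member passed 1.5-fold after TMM, and on total counts 1 did, SRSF7, lower in C1233W than in P1048R (−0.65). T1202K had a median of 0.07 against P1048R, where 3.35% of all genes passed 1.5-fold. C1233W had a median of −0.02 against P1048R (11.0% of all genes passed) and of −0.03 against T1202K (8.87%). SRSF7 and SRSF2 were lower in C1233W, against P1048R with ratios of −0.56 (−0.63 to −0.49) and −0.44 (−0.52 to −0.35), and against T1202K with −0.53 and −0.50. HNRNPA1P48 had a ratio of 0.45 (0.06 to 0.84) in C1233W against P1048R and of 0.33 (−0.05 to 0.72) against T1202K. HNRNPA1 was higher in C1233W than in P1048R by 0.44 (0.41 to 0.48) and than in T1202K by 0.21. HNRNPA0 was higher in T1202K than in P1048R by 0.38 (0.29 to 0.46), and SRSF12 was lower by −0.32. SR genes had medians of −0.13 and −0.15 in C1233W against P1048R and T1202K, and HNRNP genes of 0.06 and 0.07.

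Several counts cannot be assigned with certainty. In windows of 50 bases along the principal transcript, 28.8% of those of HNRNPA1 occur exactly in a transcript of another gene, most often in HNRNPA1P48 and other pseudogenes. The share was 49.2% for HNRNPA1P48, an HNRNPA1 retrogene annotated as coding (plus strand of chromosome 16), 58.5% for HNRNPA1L2 and 49.9% for HNRNPA3. HNRNPA1P48 was at 17.5 CPM in WT and 8.63, 9.36 and 11.8 in P1048R, T1202K and C1233W (−1.02, −1.39 to −0.66, in P1048R), and HNRNPA1L2 at 8.13 CPM in WT and 7.87, 6.53 and 6.96. For SRSF1 85.1% of windows lie also in AC015813.2, an overlapping coding gene on the same strand, and for HNRNPUL2 45.2% lie in HNRNPUL2-BSCL2. HNRNPA2B1, HNRNPM, HNRNPF, SRSF2, SRSF7 and SRSF9 were among 14 members that shared no window. Exons of 18 members overlap exons of another gene, 12 of them on the opposite strand, such as HNRNPA2B1 with CBX3, SRSF2 with MFSD11 and SRSF9 with GATC. The strand setting of the counting is unknown, so reads of these partners may not be separated.

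Transcripts that end in NMD are annotated for most members. At least 1 NMD transcript was annotated for 14 of 14 SR genes and 13 of 22 HNRNP genes, against 42.3% of 13448 protein-coding genes compared. Members also had more annotated transcripts of any kind, with medians of 10 for SR and 11 for HNRNP genes against 7. The part of that number in the NMD shares was not tested. HNRNPU had 9 such transcripts and SRSF7 had 6. Gene counts add these transcripts to the productive ones, so a change in either cannot be told apart here. Median GC content of the principal transcript was 43.3% for SR and 44.8% for HNRNP genes, against 49.0% for all protein-coding genes compared. Across all protein-coding genes the ratio to WT rose weakly with GC content (Spearman 0.10, 0.30 and 0.18 in P1048R, T1202K and C1233W), whereas across the 36 members it was −0.20, −0.18 and −0.22. With the trend on GC content and length removed, the member medians were −0.27, −0.25 and −0.30, against −0.06, −0.05 and −0.03 for all genes.

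Other lists of splicing genes are given beside the same all-gene medians (−0.04, −0.01 and −0.01) and shares. Of all genes, 8.99%, 5.29% and 4.94% were past 1.5-fold lower and 10.7%, 7.96% and 8.77% higher in P1048R, T1202K and C1233W. Of 51 core spliceosome genes compared, 6 were past 1.5-fold lower and 1 higher in P1048R, 2 and 1 in T1202K, and 2 and 0 in C1233W, with medians of −0.16, −0.08 and −0.27. The lower shares are 11.8%, 3.92% and 3.92%, near those of all genes, and on total counts none was past 1.5-fold lower and the medians were 0.07, 0.09 and −0.14. The 6 lower in P1048R, named after their values were seen, were SNRPB2, SNRPD1, SNRPD2, SNRPD3, SNRPG and SF3B5 (−0.59 to −0.73); SNRPG, an Sm ring protein, was at 190 CPM in WT and 118, 125 and 120. HnRNP proteins under other names, such as PTBP1 and SYNCRIP, had medians of −0.29, −0.18 and −0.27 (−0.06, −0.0027 and −0.14 on total counts), with 0, 0 and 1 of 20 past 1.5-fold lower and 2, 2 and 0 higher (10.0%, 10.0% and 0%). In this list PCBP4, a poly(C)-binding protein, was at 7.49 CPM in WT and 14.2, 15.1 and 8.42 in the mutants, past 2-fold in T1202K (1.01). RALYL, with 2 reads in WT and 13 in T1202K, had a ratio of 2.16 (0.28 to 5.61). PTBP1 itself, the polypyrimidine tract binding protein, was at 473 CPM in WT and 419, 505 and 411.

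Kinases and the import receptor of SR proteins had medians of 0.09, 0.04 and 0.01 over 11 genes (0.31, 0.22 and 0.14 on total counts), with 1 gene (9.09%) past 1.5-fold higher in each mutant and 0, 0 and 1 lower. DYRK1B, a kinase of the DYRK family, was at 8.45 CPM in WT and 16.3, 17.0 and 13.3 (0.94, 1.01 and 0.66). CLK1, an SR protein kinase whose own transcript retains introns, was at 74.9 CPM in WT and 88.0, 84.7 and 78.6. SR-related proteins had medians of −0.07, −0.16 and −0.26 over 32 genes (0.15, 0.02 and −0.12 on total counts). Of these, 3, 4 and 1 were past 1.5-fold lower (9.38%, 12.5% and 3.12%) and 4, 2 and 1 higher (12.5%, 6.25% and 3.12%). SRRM3, a neural regulator of microexons, was higher in each mutant (6.74 CPM in WT and 13.5, 14.1 and 15.6; ratios 0.99, 1.06 and 1.20).

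NMD and exon junction factors, on which the decay of the members' own transcripts depends, had medians of 0.16, −0.05 and −0.09 over 16 genes (0.38, 0.12 and 0.04 on total counts). Of these, 1, 1 and 3 were past 1.5-fold lower (6.25%, 6.25% and 18.8%) and 2, 1 and 0 higher (12.5%, 6.25% and 0%); on total counts 0, 0 and 1 were lower. Among 30 splicing regulators of restricted tissues, 1, 1 and 0 were lower (3.33%, 3.33% and 0%) and 1, 1 and 3 higher (3.33%, 3.33% and 10.0%) past 1.5-fold, shares below or near those of all genes. Their medians were −0.07, −0.04 and 0.04 (0.16, 0.14 and 0.17 on total counts). CELF3, a brain-enriched regulator, was at 0.535 CPM in WT and 2.51, 2.21 and 1.45 (2.12, 0.85 to 3.95, in P1048R). RBFOX3, the neuronal antigen NeuN, was at 2.25 CPM in WT and 5.13 in C1233W (1.17, 0.44 to 1.99), and RBM24, a muscle regulator, at 3.53 and 7.74 (1.12, 0.53 to 1.76).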

How the data were processed

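TRIzol extraction, column clean-up and a stranded QIAseq library protocol are recorded in the labels' protocols. The deposited values are whole-number read counts per gene, which the authors did not normalize. The submitters' processing notes list hg38, featureCounts, HISAT2 and Trim Galore with no version. The annotation release, the strand setting and how reads with several alignments were counted are unknown. Of 58735 identifiers, 58676 matched GENCODE release 29, the source of coordinates, lengths and GC content.

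TMM factors came from edgeR 4.0.16 (R 4.3.3): WT 0.912, P1048R 1.07, T1202K 1.03, C1233W 0.999. A gene was compared when any library reached 1 CPM, which 16262 genes did. Counting intervals follow the Clopper-Pearson method, and 3 reads corresponded to 0.251 to 0.321 CPM. With 1 library per construct no p-value was computed. Functions were tested on simulated data. Alternatives were total counts with and without PBRM1, DESeq2 1.42.0 size factors, other filters, thinned counts, and ratios without the trend on GC content and length (mgcv 1.9.3). Members are described singly when past 2-fold, among the 5 highest or lowest in a mutant, or among the 3 highest per kb in a family, and the others to account for every gene. Genes of other lists are named when past 2-fold; PTBP1, CLK1 and the Sm genes were chosen after their values were seen. The principal transcript is the best-ranked APPRIS transcript, the longest where several tie. Members and lists were chosen with earlier results of these data known.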

Additional observations from a re-analysis of the deposited data

How the results depend on the processing

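The direction of the member medians against WT was the same under all 7 alternatives run, and a change of scaling leaves their distance from the all-gene median as it was. Scaling on total counts, with and without PBRM1, moved the medians to −0.081 and −0.098 in P1048R, −0.017 and −0.024 in T1202K and −0.16 and −0.10 in C1233W. Members past 1.5-fold then numbered 4 and 4 in P1048R (2 lower and 2 higher), 2 and 1 in T1202K, and 0 and 0 in C1233W. The member past 2-fold in P1048R, HNRNPA1P48, was lost (0 genes) on both total counts, with DESeq2 size factors and with the GC and length trend removed. Between C1233W and P1048R the median of −0.02 became −0.12 on total counts and turned to 0.010 with that trend removed. Of 15 ratios of named genes past 1.5-fold, 12 were no longer past it on total counts, 12 without PBRM1, 2 with DESeq2 size factors, 2 with the trend removed and 0 with thinned counts; 3 were newly past it on total counts, 2 without PBRM1 and 1 with the trend removed. Signs turned for total counts without PBRM1 in 8, 9 and 8 members in P1048R, T1202K and C1233W, 2 and 1 in P1048R and T1202K with DESeq2 size factors, 1, 3 and 1 in the 3 mutants with the trend removed, and 1 in P1048R with thinned counts. The member past 1.5-fold between C1233W and P1048R on total counts was SRSF7. No paired analysis was possible because each construct has 1 library, and no library could be left out. Depth limits HNRNPA1L2, HNRNPA1P48 and HNRNPUL2-BSCL2 most.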

Other observations

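Pseudogenes of the member genes have counts of their own. How reads with several alignments were counted is unknown, so reads of a pseudogene and of its parent gene may not be separated. The 12 HNRNPA1 pseudogenes with at least 10 reads held 320 reads in WT, 223 in P1048R, 241 in T1202K and 249 in C1233W. Their summed log2 ratios to WT were −0.87 (−1.13 to −0.62), −0.69 (−0.93 to −0.44) and −0.51 (−0.75 to −0.26), beside −0.83, −0.60 and −0.39 for HNRNPA1 itself. Over all 28 pseudogenes of HNRNP genes with that many reads, the 12 included, the summed ratios were −0.78, −0.57 and −0.43. Some single pseudogenes went the other way, such as HNRNPCP1 (0.63, 0.99 and 0.75).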
